A study of Homo sapiens with 6 samples.

Results

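STK26 and 8 genes whose proteins work with it were examined in A549 cells after knockdown of S100A4. The 9 genes were STK26 (MST4 on the array), STK24, STK25, PDCD10, STRN, STRN3, STRN4, MOB4 and SIKE1, out of 25141 named genes on the array. STK26 was chosen by its fall in this same comparison, so its values below are a description and carry no test. The 8 partners were chosen by function, as fellow kinases of its class or as members of the complex it joins. That choice, too, was made with earlier results of these data known. Each of the 9 genes was read by 1 transcript cluster (the array's group of probes for a gene), so no choice between clusters was needed.

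STK26, STK24 and STK25 are the germinal centre kinases of class III (GCKIII), serine/threonine kinases that are held at the Golgi or at the cell cortex and act in cell polarity and migration. They bind PDCD10, the product of a gene mutated in cerebral cavernous malformations, and through it the striatins. Striatins are regulatory subunits of the phosphatase PP2A and scaffold the STRIPAK complex (striatin-interacting phosphatase and kinase), in which kinase and phosphatase sit side by side.

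The comparison held 3 arrays of A549 cells stably carrying a lentiviral shRNA against S100A4 and 3 arrays of A549 cells stably carrying a lentiviral control shRNA. A549 is an established line from a human lung adenocarcinoma. The labels name 1 shRNA per group and call the arrays biological replicates without saying how the cultures were separated, so p-values here cover array-to-array spread, which may be technical, and not that between shRNAs or independently made lines. The series asks what acts downstream of S100A4, a small calcium-binding protein tied to metastasis, in mitochondrial metabolism and invasion.

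The target was lower on the arrays labelled S100A4 shRNA: S100A4 read 5.74, 5.51 and 5.44 there, against 7.57, 7.12 and 7.18 on the control shRNA arrays (log2 signal). Its log2 fold was -1.73 (SE 0.13, limma adjusted p = 0.000453). A two-sided exact permutation test gave p = 0.1, which is as low as 3 arrays a group can reach. The negative control probe sets had medians of 4.18 to 4.27, and the 95th percentile of their means over the 6 arrays was 6.86. Of the 5 epithelial markers KRT8, KRT18 and CDH1 lay above that percentile, and KRT19 and EPCAM lay below it. KRT8 and KRT18 fell, KRT19 and CDH1 rose (CDH1 by a log2 fold of 0.97), and EPCAM was not called. The S100A4 signal of the knockdown arrays and that of STK25 on all 6 arrays also lay below the percentile. The 15 leukocyte, endothelial and fibroblast markers had mean signals over the 6 arrays between 3.26 and 5.03, all below the percentile. Of the 15, 1 was called, against 11.6% of all genes: the fibroblast marker THY1 (log2 fold -0.31, limma adjusted p = 0.0167). The positive control probe sets, which read housekeeping RNA, had medians of 13.2 to 13.4 with S100A4 shRNA and 13.5 to 13.6 with control shRNA, a difference of -0.23. That difference moves with every comparison below, and its part in them was not tested beyond the rescaled values given in the closing section.

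STK26 read 7.22, 7.36 and 7.30 with S100A4 shRNA, against 9.39, 9.44 and 9.29 with control shRNA (log2 signal). All 3 S100A4 shRNA arrays lay far below all 3 control arrays, and the closest arrays of the groups were 1.93 apart. STK26 averaged 7.30 ± 0.07 with S100A4 shRNA and 9.37 ± 0.08 with control shRNA (SD, n = 3 each). The log2 fold was -2.08 (SE 0.068), which is 4.22-fold lower. STK26 ranked 5 among all genes ordered from the largest fall. In the authors' deposited table, a separate summary of the arrays, it ranked 2 with a ratio of 0.415. The arrays read bulk RNA, so fewer cells with the transcript and less of it per cell cannot be told apart.

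**Figure D1:**
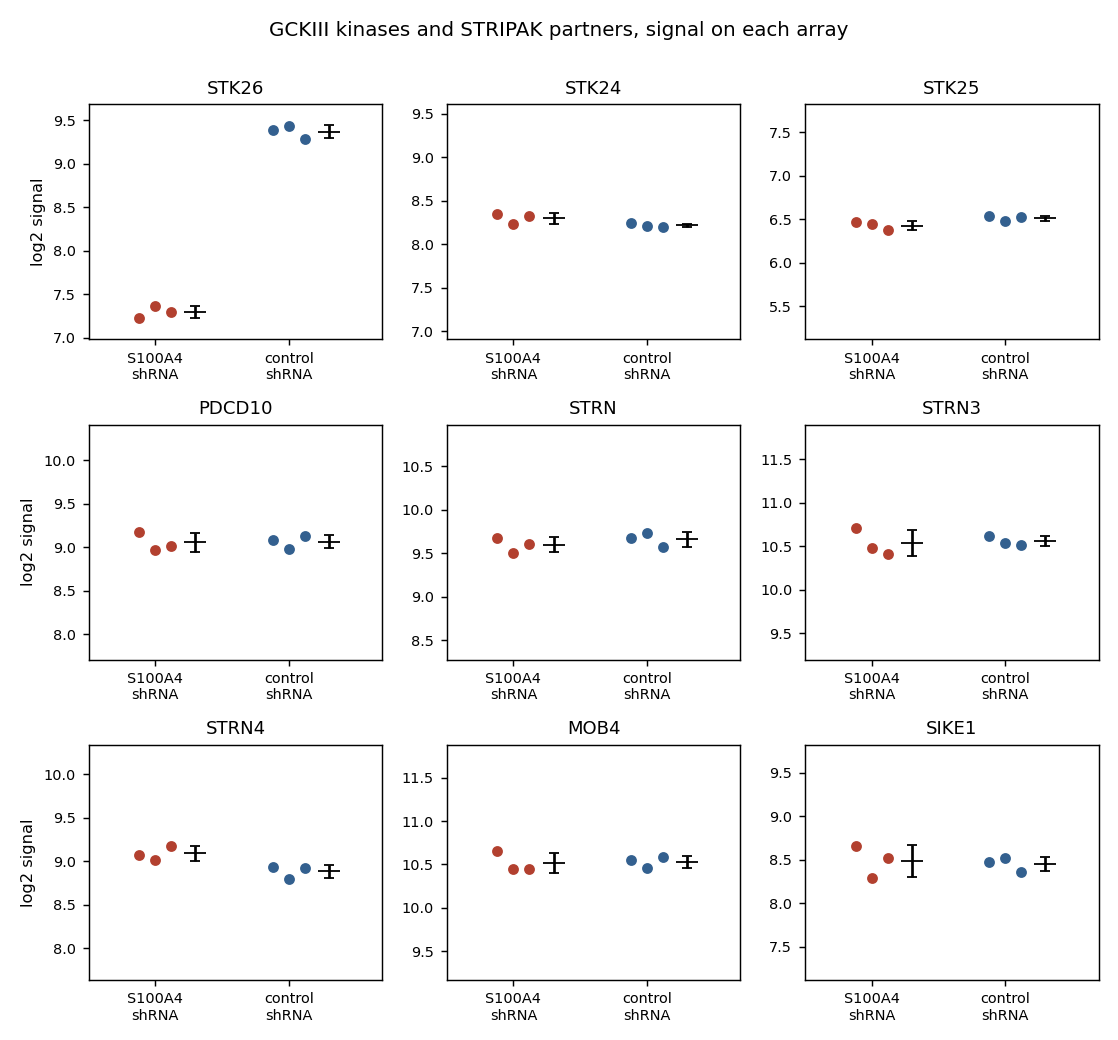
Log2 signal of the 9 genes on each array, S100A4 shRNA (red) at the left and control shRNA (blue) at the right of each panel, with the group mean and SD beside the points (n = 3 each). Every panel spans the same range of log2 units around its own mean, and the groups stand far apart for STK26 alone, at means of 7.30 with S100A4 shRNA and 9.37 with control shRNA.

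The other GCKIII kinases did not pass the test. STK24 (MST3), a kinase of cell migration and axon growth, read 8.34, 8.23 and 8.32 with S100A4 shRNA and 8.24, 8.21 and 8.19 with control shRNA. Its groups overlapped, and its log2 fold was 0.082 (95% interval -0.057 to 0.22, limma adjusted p = 0.434). STK25 (YSK1 or SOK1), a Golgi kinase that also acts in lipid storage, read 6.47, 6.44 and 6.37 with S100A4 shRNA and 6.53, 6.48 and 6.52 with control shRNA. Its S100A4 shRNA arrays all lay below its control arrays, but by little, at a log2 fold of -0.086 (95% interval -0.22 to 0.050, limma adjusted p = 0.402). For STK24 the interval runs between 0.961-fold and 1.17-fold of the control level, and for STK25 between 0.857-fold and 1.04-fold. STK25 read below the 95th percentile of the negative controls on every array, which limits what its interval can show.

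PDCD10, the adaptor that ties the GCKIII kinases to the striatins and keeps them stable, read 9.18, 8.97 and 9.02 with S100A4 shRNA and 9.08, 8.98 and 9.13 with control shRNA. The groups overlapped fully, with a log2 fold of -0.0081 (95% interval -0.19 to 0.17, limma adjusted p = 0.959).

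Of the striatins, the scaffolds that bring PP2A to the kinases, STRN read 9.67, 9.51 and 9.61 with S100A4 shRNA and 9.67, 9.74 and 9.57 with control shRNA. STRN3 read 10.71, 10.48 and 10.42 with S100A4 shRNA and 10.62, 10.54 and 10.52 with control shRNA. Both overlapped between the groups, at log2 folds of -0.061 for STRN (limma adjusted p = 0.641) and -0.026 for STRN3 (limma adjusted p = 0.88). STRN4 (zinedin) read 9.07, 9.02 and 9.18 with S100A4 shRNA and 8.93, 8.80 and 8.92 with control shRNA. Its S100A4 shRNA arrays all lay above its control arrays, and its log2 fold of 0.21 was the largest in size of the 8 partners (95% interval 0.041 to 0.37). It had an unadjusted limma p of 0.0209 and did not pass after adjustment over all genes (limma adjusted p = 0.111).

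Neither small adaptor was called. MOB4 (phocein), a MOB-family protein that binds the striatins, read 10.65, 10.45 and 10.45 with S100A4 shRNA and 10.55, 10.46 and 10.59 with control shRNA. SIKE1, which links SLMAP to the core of the complex and was first known as a suppressor of the kinase IKK-epsilon, read 8.65, 8.29 and 8.52 with S100A4 shRNA and 8.48, 8.51 and 8.36 with control shRNA. Both overlapped between the groups, at log2 folds of -0.016 for MOB4 (limma adjusted p = 0.92) and 0.037 for SIKE1 (limma adjusted p = 0.849).

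None of the 8 partners was called by limma at an adjusted p under 0.05, while 11.6% of all genes were, and 1 of the 8 had an unadjusted p under 0.05, against 26.4% of all genes. The groups did not overlap for 2 of the 8, STK25 and STRN4, against 32.8% of all genes. Their median log2 fold was -0.012, beside -0.034 over all genes, and the 95% intervals of all 8 stayed between -0.23 and 0.37, or 0.852-fold and 1.29-fold of control. A p that misses the threshold does not show that a partner was the same in both lines. With the positive controls as scale, which raises every log2 fold by 0.23, STK24 (0.31, limma adjusted p = 0.0438) and STRN4 (0.43, limma adjusted p = 0.0112) were called higher, as were 19.2% of all genes under that scale.

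Within the knockdown group 7 of the 8 partners were highest on replicate 1, and STRN4 was highest on replicate 3. Among all genes above the median signal, 49.1% were highest on replicate 1 of that group and 14.3% on replicate 2, so many other genes had the same array highest. SIKE1 had the widest spread of the 8 in the knockdown group (SD 0.18, n = 3), and STK25 the narrowest (SD 0.050, n = 3).

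The authors' deposited table gave another view of the partners. There STK25 had a ratio of 0.896 (authors' unadjusted p = 0.00428), STRN3 a ratio of 1.12 (0.00843) and PDCD10 a ratio of 1.08 (0.0332), and the remaining 5 had unadjusted p-values above 0.05. STRN4, the largest change of the 8 in the value table, had a ratio of only 1.04 there (authors' unadjusted p = 0.178). The largest change of the 8 there was that of SIKE1, at a ratio of 1.19 (authors' unadjusted p = 0.211). Of all genes, 29.4% had an authors' unadjusted p under 0.05. After adjustment of those p-values over the same genes, 0 of the 8 passed, and the lowest adjusted p was 0.07, for STK25. The sign of the change was the same in both summaries for 4 of the 8, and it differed for PDCD10, STRN, STRN3 and MOB4.

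The rest of the pathway was described from 6 lists of 77 genes in all, every one of them measured. limma called 11 of the 77, or 14.3%, against 11.6% of all genes. Of these, 5 rose and 6 fell, while 6.08% of all genes rose and 5.49% fell. Their median log2 fold was 0.011. Read against the background, the share called is no result about the pathway, and the values below describe single genes.

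**Figure D2:**
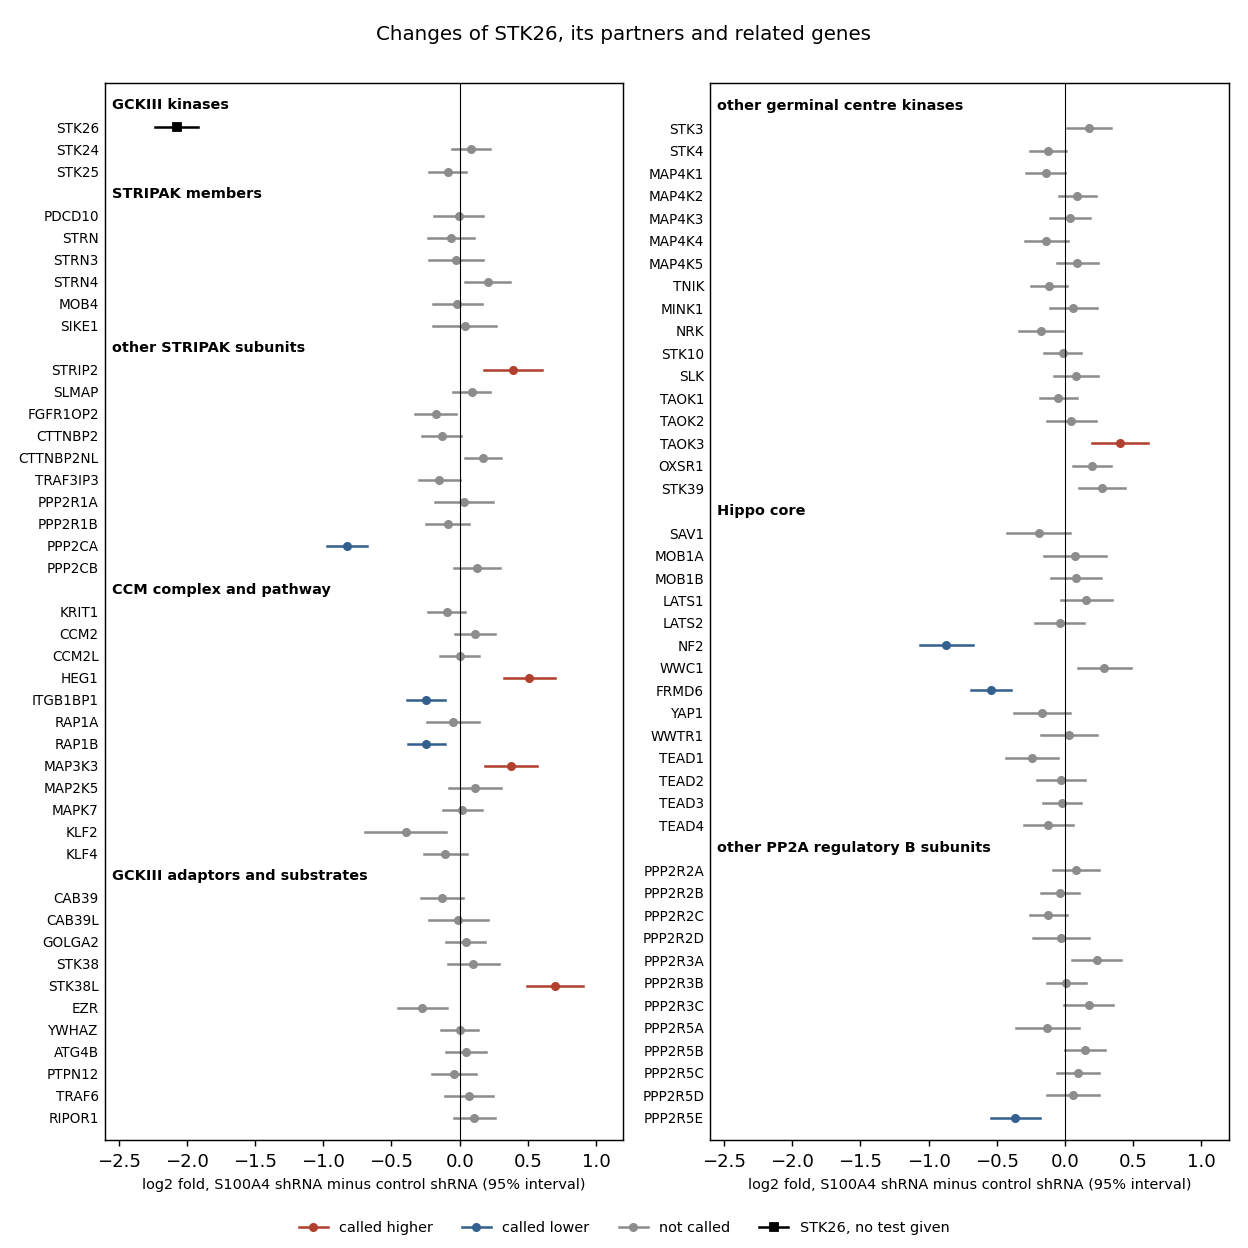
Log2 fold (S100A4 shRNA minus control shRNA) with its 95% limma interval for STK26, its 8 partners and all but 1 of the 77 further genes, grouped by list. Red marks genes called higher, blue genes called lower and grey genes not called; STK26 (black) lies at -2.08, and the largest fall among the others is that of NF2 at -0.87.

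Among the 11 remaining STRIPAK subunits 1 fell, 1 rose and 9 were not called, against 11.6% of all genes called. Of the 11, 4 had an unadjusted limma p under 0.05, against 26.4% of all genes. PPP2CA, the alpha isoform of the PP2A catalytic subunit, read 9.18, 9.06 and 9.15 with S100A4 shRNA and 9.90, 10.00 and 9.96 with control shRNA. Every S100A4 shRNA array was lower, and the fall was 0.564-fold of control (log2 fold -0.83, SE 0.064, limma adjusted p = 0.000467). It was the one gene of the 77 that also passed in the authors' deposited table, at a ratio of 0.785 (adjusted here, p = 0.0324). PPP2CB, the beta isoform of the same subunit, was not called (log2 fold 0.13, 95% interval -0.039 to 0.29), nor were the PP2A scaffold genes PPP2R1A (0.029) and PPP2R1B (-0.087). STRIP2, a subunit that helps organise the complex, rose from a signal below the 95th percentile of the negative controls: it read 6.46, 6.33 and 6.54 with S100A4 shRNA and 6.19, 5.91 and 6.05 with control shRNA (log2 fold 0.39, SE 0.091, limma adjusted p = 0.0327). The call was lost without array 2 or 3 of the control line or array 1 or 3 of the knockdown line (limma adjusted p up to 0.107). The median of the list was 0.029.

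In the list around the cavernous malformation proteins, which PDCD10 joins outside STRIPAK, 2 of 12 rose, 2 fell and 8 were not called. The median was -0.024, and 5 of the 12 had an unadjusted limma p under 0.05. Over all genes 11.6% were called and 26.4% had an unadjusted limma p under 0.05. HEG1, the membrane receptor that binds KRIT1, read 9.49, 9.33 and 9.45 with S100A4 shRNA and 9.02, 8.92 and 8.79 with control shRNA (log2 fold 0.51, SE 0.080, limma adjusted p = 0.00708). MAP3K3, the kinase restrained by CCM2, rose by 0.38 on the log2 scale (SE 0.082, limma adjusted p = 0.0248). The GTPase RAP1B, which binds KRIT1, fell by 0.25 (SE 0.058, limma adjusted p = 0.0338), and ITGB1BP1, an integrin adaptor that binds KRIT1, fell by 0.25 (SE 0.059, limma adjusted p = 0.0362). Only the call of HEG1 stood whichever array was left out: those of RAP1B and ITGB1BP1 were lost without any 1 of the 6 arrays, the highest limma adjusted p being 0.1 for RAP1B and 0.127 for ITGB1BP1. That of MAP3K3 was lost without any 1 array except knockdown array 2 (up to 0.0848). In the authors' deposited table RAP1B had the opposite sign, at a log2 difference of 0.0025, and HEG1 a ratio of 1.27 that did not pass (adjusted here, p = 0.0788). With the replicate number as a block the calls of RAP1B (limma adjusted p = 0.0553) and ITGB1BP1 (0.0528) were also lost, as they were when the positive controls set the scale. KRIT1 (-0.096) and CCM2 (0.11) were not called, and the transcription factor KLF2, which lies downstream of MAP3K3, had a log2 fold of -0.40 that did not pass (limma adjusted p = 0.0939). CCM2 and KLF2 read below the 95th percentile of the negative controls on every array.

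Among 11 adaptors and substrates of the GCKIII kinases 1 rose, 0 fell and 10 were not called, while 11.6% of all genes were called. The median was 0.045, and 2 had an unadjusted limma p under 0.05, against 26.4% of all genes. STK38L (NDR2), a kinase activated by STK24, read 9.44, 9.22 and 9.37 with S100A4 shRNA and 8.73, 8.50 and 8.70 with control shRNA. All 3 S100A4 shRNA arrays were higher, at a log2 fold of 0.70 (SE 0.088, limma adjusted p = 0.00308). Its ratio in the authors' deposited table was 1.47 and did not pass (adjusted here, p = 0.07). Its relative STK38 (NDR1) was not called (log2 fold 0.10). Neither were CAB39 (-0.13), the MO25 protein that activates GCKIII kinases, GOLGA2 (0.045), the Golgi protein GM130 that anchors STK26, or the STK26 substrate ATG4B (0.046). ATG4B read below the 95th percentile of the negative controls on every array. Ezrin, EZR, also a substrate of STK26, had a log2 fold of -0.27 that did not pass (limma adjusted p = 0.0625).

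Of the 17 germinal centre kinases outside class III, 1 rose, 0 fell and 16 were not called (median log2 fold 0.047), against 11.6% of all genes called. An unadjusted limma p under 0.05 was found for 5 of the 17, against 26.4% of all genes. TAOK3, an upstream kinase of stress and Hippo signalling, read 8.97, 8.77 and 8.74 with S100A4 shRNA and 8.54, 8.34 and 8.38 with control shRNA (log2 fold 0.41, SE 0.087, limma adjusted p = 0.0243). That call was lost without control shRNA replicate 2 (limma adjusted p = 0.0805), control shRNA replicate 3 (0.0892) or S100A4 shRNA replicate 1 (0.068). STK3 and STK4, the Hippo kinases that STRIPAK dephosphorylates, had log2 folds of 0.18 and -0.12 and were not called. STK3 read below the 95th percentile of the negative controls on every array.

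Hippo signalling is the pathway on which STRIPAK is best known to act. Of 14 core Hippo genes 2 fell, 0 rose and 12 were not called, beside 11.6% of all genes called. Their median was -0.035, and 4 had an unadjusted limma p under 0.05, beside 26.4% of all genes. NF2 (merlin), the tumour suppressor upstream of the LATS kinases, read 8.73, 8.74 and 8.80 with S100A4 shRNA and 9.75, 9.47 and 9.65 with control shRNA, a log2 fold of -0.87 (SE 0.083, limma adjusted p = 0.00101). FRMD6, a FERM-domain protein of the same arm, read 7.40, 7.26 and 7.40 with S100A4 shRNA and 7.89, 7.89 and 7.91 with control shRNA, a log2 fold of -0.54 (SE 0.064, limma adjusted p = 0.00231). Both genes were separated between the groups and kept their calls whichever array was left out. In the authors' deposited table the falls were smaller, at ratios of 0.775 for NF2 and 0.853 for FRMD6, and did not pass after adjustment here (p = 0.0743 for NF2 and 0.121 for FRMD6). WWC1 (KIBRA), which works with NF2, lay at 0.29 on the log2 fold scale (limma adjusted p = 0.0694). TEAD1, a DNA-binding partner of YAP1, lay at -0.24 (limma adjusted p = 0.106). For WWC1, TEAD1 and YAP1 (-0.17) the groups did not overlap, as for 32.8% of all genes, and none of these was called. LATS1 (0.16) and LATS2 (-0.039) overlapped between the groups and were not called.

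Of 12 PP2A regulatory subunits that compete with the striatins for the phosphatase core, 1 fell, 0 rose and 11 were not called (median 0.035). An unadjusted limma p under 0.05 was found for 3 of the 12. Over all genes 11.6% were called and 26.4% had such an unadjusted p. PPP2R5E, of the B56 family, averaged 11.01 ± 0.09 with S100A4 shRNA and 11.38 ± 0.09 with control shRNA (SD, n = 3 each; log2 fold -0.36, SE 0.077, limma adjusted p = 0.0237). That call was lost without array 1 or 2 of the control line or array 2 or 3 of the knockdown line (limma adjusted p up to 0.0824) and with the positive controls as scale (log2 fold -0.13). In the authors' deposited table the ratio was 0.987.

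**Figure D3:**
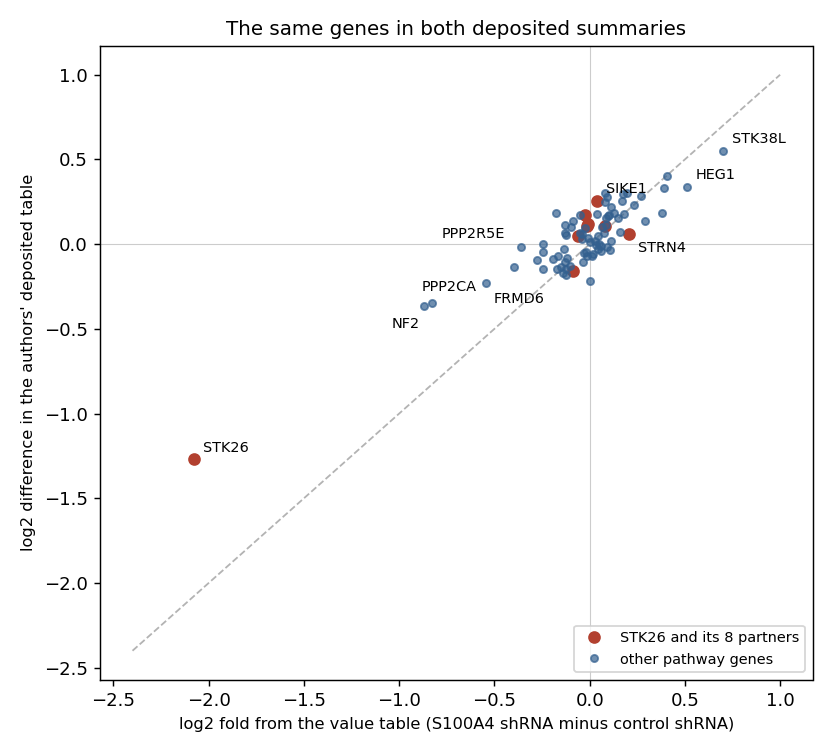
Log2 fold of STK26, its 8 partners (red) and all but 1 of the 77 further genes (blue) from the value table (x axis) against the log2 difference in the authors' deposited table (y axis), both as S100A4 shRNA minus control shRNA. The dashed line marks equal values: STK26 lies at -2.08 and -1.27, and NF2 and PPP2CA are likewise nearer to 0 in the authors' table.

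STK26 lies at Xq26.2 by the array's annotation. Of the 10 measured protein-coding genes nearest to it, 2 fell and 8 were not called, beside 5.49% of all genes that fell. FRMD7, the nearest on the side of higher coordinates, had means of 4.01 ± 0.04 with S100A4 shRNA and 4.08 ± 0.07 with control shRNA (SD, n = 3 each), and OR13H1, an olfactory receptor gene and the nearest on the other side, 3.59 ± 0.06 with S100A4 shRNA and 3.75 ± 0.18 with control shRNA (SD, n = 3 each). Both lay below the negative control medians, where a fall could not be read. The 8 uncalled neighbours all had group means of 3.59 to 4.99, below the 95th percentile of the negative controls. Their lack of a call therefore does not show that they stayed the same. RAP2C, a RAS-family GTPase, read 6.87, 6.76 and 6.80 with S100A4 shRNA and 7.11, 7.15 and 6.98 with control shRNA (log2 fold -0.27, limma adjusted p = 0.0472). Knockdown arrays 2 and 3 lay below the 95th percentile of the negative controls. The RAP2C call was lost without any of the 6 arrays (limma adjusted p up to 0.142), with the replicate block (0.0665), with array medians subtracted (0.0542) and with array weights (0.0692). It was also lost with the positive controls as scale (log2 fold -0.043, limma adjusted p = 0.753) and in the authors' deposited table (adjusted here, p = 0.168). ENOX2, a cell-surface oxidase, read 7.48, 7.45 and 7.54 with S100A4 shRNA and 8.08, 7.86 and 7.97 with control shRNA (log2 fold -0.48, limma adjusted p = 0.00626). The ENOX2 call was lost with the positive controls as scale (log2 fold -0.25, limma adjusted p = 0.0973) and in the authors' deposited table (adjusted here, p = 0.261).

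**Figure D4:**
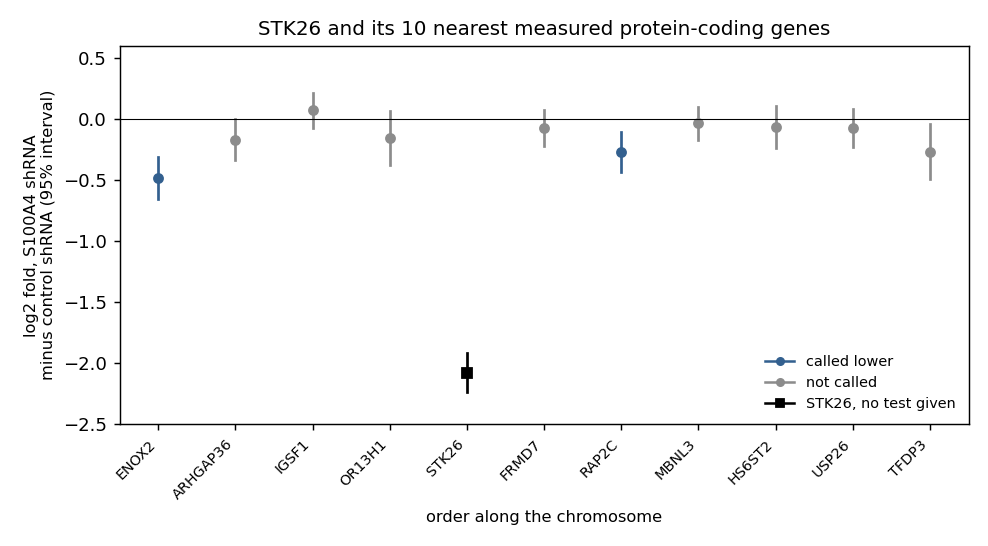
Log2 fold (S100A4 shRNA minus control shRNA) with its 95% limma interval for STK26 and its 10 nearest measured protein-coding genes in their order along the chromosome, not to scale. STK26 (black square) lies at -2.08, and the called neighbours ENOX2 and RAP2C (blue) at -0.48 and -0.27.

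The array profiles most like that of STK26 were found as the smallest root mean square distance between values centred on each gene's mean over the 6 arrays. SNORD93, a small nucleolar RNA, and GFRA1, which helps the RET kinase bind its ligand GDNF, were closest, each at a distance of 0.17 log2 units. The proteoglycan gene VCAN followed at 0.177 and the nuclear receptor gene NR5A2 at 0.185. These 4 genes were lower with S100A4 shRNA, a direction fixed by choosing them for likeness to STK26. GFRA1 read 7.10, 7.12 and 7.29 with S100A4 shRNA, against 9.51, 9.56 and 9.55 with control shRNA. The likeness rests on 6 arrays in 2 groups and is a description.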

How the data were processed

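RNA of A549 cells was amplified, turned into labelled cDNA and read on 6 whole-transcript arrays, per the labels' protocols. The main table deposited by the authors holds log2 signal for each array, a scale read from its values; no source used here names the program behind it. They also deposited a workbook with log2 group means, unadjusted p-values and a linear ratio, per the file headers, and the submitters' processing notes name Partek 6.0. Its levels come from another summary, so it gave gene symbols and an alternative only.

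Symbols were updated through RefSeq names (assembly GRCh38.p14, also used for which genes neighbour each other), which left 25141 genes, 1 cluster each (the one with the highest mean over the 6 arrays). Values were used unfiltered. R 4.3.3 with limma 3.58.1 (linear model, moderated variance) compared 3 S100A4 shRNA arrays with 3 control shRNA arrays, two-sided, and p-values were adjusted by Benjamini-Hochberg over the 25141 genes. Called, rose and fell mean an adjusted p under 0.05. It was tested on simulated data. SE and 95% intervals are limma's, SDs are over 3 arrays, whose small number limits precision. The 9 genes, the lists and the rules were chosen with earlier results of these data known. Each list names up to 4 called genes with the smallest p, and any other gene was picked after its values were seen. Of the 5 profiles most like STK26, 1 is not reported here, nor is 1 of the 77 pathway genes, which is included in the counts. The alternatives were leaving out each array, a replicate block, other scalings, array weights, a signal filter, another variance model, all named clusters and the authors' deposited table.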

Additional observations from a re-analysis of the deposited data

How the results depend on the processing

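The log2 fold of STK26 ran from -2.12 to -2.04 with 1 array left out, and was -1.85 with the positive controls as scale and -1.27 in the authors' deposited table. The S100A4 fold kept its call in every alternative run. The call count over all genes (2910) ran from 1539 to 2583 with 1 array left out, falling past 1.5 times without knockdown array 1 (1801), knockdown array 3 (1767), control array 2 (1816) or control array 3 (1539). It was 5153 with the positive controls as scale and 532 in the authors' deposited table. Of the 8 partners 0 were called in every alternative except the positive control scale, where 2 were: STK24 (log2 fold 0.31, limma adjusted p = 0.0438) and STRN4 (0.43, 0.0112). That scale shifts every gene by 0.23 and turns the share of calls that are higher to 93.9%, against 52.5% here. Under it the signs of STK25 (0.14), PDCD10 (0.22), STRN (0.17), STRN3 (0.20) and MOB4 (0.21) turned, none of them called, while the median log2 fold of all genes was 0.19 there, against -0.034 without it. In the authors' deposited table PDCD10 (0.12), STRN (0.047), STRN3 (0.17), MOB4 (0.11) and RAP1B (0.0025) had the opposite sign, and array weights put STRN3 at 0.0015. With 1 array left out PDCD10 ran from -0.069 to 0.033, STRN3 from -0.11 to 0.034, MOB4 from -0.084 to 0.020 and SIKE1 from -0.046 to 0.13.

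Of the 77 pathway genes, between 6 and 10 were called with 1 array left out (6 without knockdown array 1 or 3 or control array 2 or 3, and 7 without control array 1), 23 with the positive control scale and 1 in the authors' deposited table. Of the 10 neighbours, 1 was called with any array left out, with the replicate block, with array medians subtracted and with array weights, and 0 with the positive control scale and in the authors' deposited table. The cause of these shifts was not tested. Same-numbered arrays deviated together at r = 0.083, 0.17 and -0.0087 across genes, so the numbers were not treated as pairs; the replicate block gave 2883 calls.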
